A study of Sus scrofa with 8 samples.

Results

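The transforming growth factor beta (TGF-beta), bone morphogenetic protein (BMP) and activin family was followed in the pig oviduct with 45 probe sets of 29 genes, out of 24123 probe sets on the Affymetrix Porcine array. Its members are the probe sets with a single gene symbol in the platform annotation that begins with TGFB, BMP, ACVR, INHA, INHB or GDF, or that names an LTBP, SMAD, ID or follistatin gene. The symbols of 29 of the 29 genes were the same in the RefSeq gene table of assembly Sscrofa11.1. Of 4 sows, an oviduct received Y-spermatozoa (4 arrays, Y1 to Y4) and the contralateral oviduct of the same animal X-spermatozoa (4 arrays, X1 to X4), both placed there by laparoscopy after flow cytometric sorting by chromosomal sex. The sows were weaned Landrace × Large White crosses with preovulatory follicles, the semen came from several boars, both uterine horns were closed with staples, and cells were scraped from the opened oviduct 24 h after insemination, before ovulation. Arrays with the same number were taken as coming from the same sow. No oviduct without spermatozoa was analysed here, so each difference sets Y-spermatozoa against X-spermatozoa and says nothing of the response to spermatozoa as such.

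Ligands of this family are secreted dimers that bring type I and type II receptor kinases together on the cell surface. The activated type I receptor phosphorylates SMAD proteins, which join SMAD4 and enter the nucleus; TGF-beta and activin act mainly through SMAD2 and SMAD3, and BMPs through SMAD1, SMAD5 and SMAD8. TGF-beta is stored in a latent form bound to matrix, and follistatins bind activin and keep it from its receptor. In the female tract the family is known for roles in epithelial growth, immune tolerance and matrix turnover.

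The values are the linear signals deposited by the authors, in arbitrary units, and differences are Y-spermatozoa minus X-spermatozoa on the log2 scale after quantile normalization. A signal was called above background on an array where it exceeded a level read from 81 probe sets without a target in the pig (their 95th percentile), which lay at 8.5 to 10.7 on the Y-spermatozoa arrays and at 10.3 to 12.3 on the X-spermatozoa arrays. The median signal per array was 38.7 to 39.9 with Y-spermatozoa and 39.9 to 41.2 with X-spermatozoa. The signals of the hybridisation controls, transcripts added to the samples, averaged 9.87 to 10.09 on the log2 scale with Y-spermatozoa and 9.59 to 9.83 with X-spermatozoa, without overlap. The label of the tissue fits its markers: OVGP1, the oviduct-specific glycoprotein, gave 7768.9 to 9314.9 with Y-spermatozoa and 5841.4 to 8469.1 with X-spermatozoa, and the summed epithelial markers (EPCAM, KRT8, KRT18, CDH1 and CLDN3) reached 6959 to 8565 with Y-spermatozoa and 6268 to 7404 with X-spermatozoa. Smooth muscle markers were also present and varied widely, from 1534 to 6695 with Y-spermatozoa and from 2436 to 7591 with X-spermatozoa.

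Much of the family was dim in these cells. Of the 45 probe sets, 22 (of 19 genes) lay above background on all 8 arrays, against 65.5% of all probe sets tested, 20 did so on 1 to 7 arrays and 3 on none, against 15.3% of all. The 22, called bright here, covered most type I receptors (ACVR1, ACVR1B, BMPR1A, BMPR1B and TGFBR1), SMAD1 and SMAD4. Of the ligands and subunits, INHBA, GDF9, BMP4 and a probe set each of TGFB1, TGFB2 and TGFB3 were bright. A probe set of BMP1, which is not a ligand, was bright too. Signals of different probe sets depend on their probes, so no level is ranked against another here.

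In limma 3 of 45 probe sets passed the unadjusted threshold of 0.05, against 3.56% of the 23999 probe sets tested. All 3, namely INHA, ACVR1B and TGFB1, were higher with Y-spermatozoa, as were 1.62% of all. Of the 22 bright members 2 passed (ACVR1B and TGFB1), against 2.31% of all bright probe sets. No member was lower at that threshold, against 1.94% of all probe sets. After Benjamini-Hochberg adjustment over all probe sets 0 members passed, as did 0 of all 23999, and every member had an adjusted p of 1. With the sow as a block 6 of 45 members passed without adjustment, against 5.09% of all, and 0 with it. The block added BMP7 among the higher (4 members, against 2.35% of all) and ACVR1 and TGFB2 as the lower (2 members, against 2.75%). With the sow as a random block in limma, ACVR1 kept its call with an unadjusted p of 0.0397, while BMP7 (0.0949) and this probe set of TGFB2 (0.0582) did not. The median log2 difference of the 45 probe sets was 0.02, beside 0.00 for all probe sets, with 24 positive and 21 negative values. Among the 22 bright members 13 were positive and 9 negative, from -0.29 to 0.53, and 10 were smaller than 0.1 in size. The plot of all differences shows how the intervals widen for the dim probe sets.

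**Figure D1:**
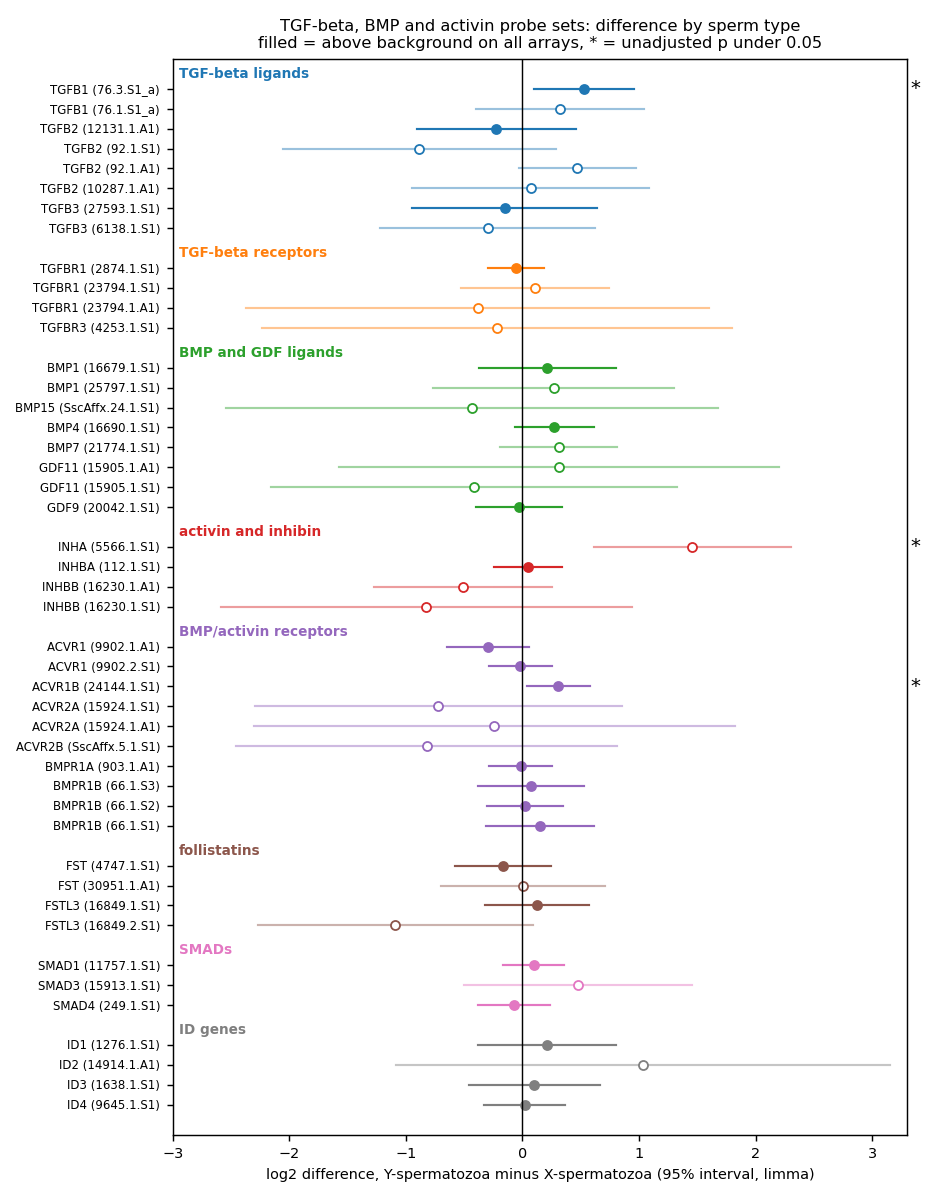
Log2 difference in signal, Y-spermatozoa minus X-spermatozoa, for the 45 probe sets grouped by role, with 95% confidence intervals from limma (4 arrays per sperm type). Filled points are the 22 probe sets above background on all 8 arrays, open points the others, and asterisks mark INHA, ACVR1B and TGFB1, the 3 with an unadjusted p under 0.05.

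Activin and inhibin share subunits and act in opposition. INHA encodes the inhibin alpha subunit, which turns an activin beta subunit into part of inhibin. Its probe set had signals of 19.1, 17.5, 21.9 and 13.0 with Y-spermatozoa, against 3.3, 6.7, 10.8 and 8.7 with X-spermatozoa. Every Y-spermatozoa array was above background and no X-spermatozoa array was, and the groups did not overlap. Background is read on each array, and X3, at 10.8, lay below its own level of 12.3 but above those of the Y-spermatozoa arrays (8.5 to 10.7). Such separation in deposited signals, with every Y-spermatozoa array above every X-spermatozoa array, was found for 2 of 45 members (INHA and ACVR1B) and for 0.7% of all probe sets, while the opposite was found for 0 members and 1.6% of all. The X-spermatozoa signals give only a bound. Each X-spermatozoa array was therefore taken at the lowest signal above its background, or at its own normalized value where higher. INHA was then 1.65-fold higher with Y-spermatozoa. This estimate carries no sampling error, so it is not a lower limit on the true fold. The log2 difference was 0.57 with a pseudocount of 16 and 0.80 with a floor at background. Without either, the fitted log2 difference was 1.46 (standard error 0.36, confidence interval 0.61 to 2.30). It had an unadjusted p of 0.00433 in limma, which also passed in those alternatives, and an adjusted p of 1, and all 4 sows were higher on the Y-spermatozoa side. The exact permutation test over arrays gave p = 0.0286, the smallest it can give with 4 arrays against 4. These relabellings ignore the pairing by sow, and a permutation within the 4 sows could not give a two-sided p below 0.125.

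Neither beta subunit passed the test. INHBA, the beta A subunit that forms activin A, gave 216.1, 235.6, 289.5 and 228.8 with Y-spermatozoa, against 243.4, 228.1, 245.6 and 213.9 with X-spermatozoa. The groups overlapped, with a log2 difference of 0.05 (95% confidence interval -0.24 to 0.34). INHBB, the beta B subunit, had 2 dim probe sets with log2 differences of -0.51 and -0.83 and intervals that include 0. Their signals ran from 6.3 to 15.2 and from 1.0 to 9.9 with Y-spermatozoa, against 8.8 to 16.4 and 4.0 to 13.1 with X-spermatozoa.

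ACVR1B is a type I receptor for activin, and its difference was small. Its signals were 466.3, 378.1, 485.4 and 407.7 with Y-spermatozoa, against 336.0, 345.0, 358.4 and 347.9 with X-spermatozoa. The lowest Y-spermatozoa array lay above the highest X-spermatozoa array, and the X-spermatozoa arrays were close together, at 346.8 ± 9.23 (SD, n = 4), beside 434.4 ± 50.0 (SD, n = 4). The log2 difference was 0.31 (standard error 0.12), with an unadjusted p of 0.0292 and an adjusted p of 1 in limma, and it ran from 0.12 to 0.48 within the 4 sows. The exact permutation p was 0.0286. In deposited signals the summed secretory markers (OVGP1 and MUC1) exceeded those of the X-spermatozoa side in each of the 4 sows. They gave 7980 to 9369 with Y-spermatozoa against 6011 to 8567 with X-spermatozoa. Nearly all of this sum is OVGP1 (mean signal 7916, beside 103.1 for the brighter MUC1 probe set). The summed ciliated cell markers were also higher in 4 sows, the epithelial markers in 3 and the smooth muscle markers in 1. The part of these cells in this result and in those of INHA and TGFB1 was not tested. After normalization the log2 difference was 0.02 for OVGP1, with 1 sow higher and 2 lower, and -0.19 and -0.21 for the probe sets of MUC1. OVGP1 is at percentile 99.97 of mean signal, yet its normalized values still varied, with sow means of 12.75 to 13.07 on the log2 scale. Its normalized differences within sows ran from -0.04 to 0.15, and the standard error of the 0.02 was 0.12. Normalized values thus showed no difference in OVGP1, while its deposited signals were higher with Y-spermatozoa in every sow. Which of these scales is closer to the RNA was not tested. In such scraped tissue, fewer cells of a type and less RNA per cell cannot be told apart.

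ACVR1, a type I receptor used mainly by BMPs, had a probe set that ran the other way. The brighter of its 2 probe sets gave 514.4, 419.2, 527.5 and 571.7 with Y-spermatozoa, against 617.5, 512.9, 576.8 and 756.5 with X-spermatozoa. It was lower with Y-spermatozoa in all 4 sows, although the groups overlapped. The log2 difference was -0.29 (standard error 0.15), with an unadjusted p of 0.0916 in limma and of 0.0273 with the sow as a block. The dimmer probe set of ACVR1 had a log2 difference of -0.02 (95% confidence interval -0.29 to 0.25), with signals of 275.2 to 324.8 with Y-spermatozoa and 282.0 to 350.2 with X-spermatozoa. The difference between these probe sets was not tested, and their intervals overlapped, that of the brighter one running from -0.65 to 0.06. The strand that each probe set of this gene and of TGFB2 reads was not checked.

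The remaining BMP receptors showed no difference past the test. BMPR1A, a type I BMP receptor, had a log2 difference of -0.01 (95% confidence interval -0.28 to 0.26), with signals of 166.8 to 193.8 with Y-spermatozoa and 169.8 to 213.0 with X-spermatozoa. BMPR1B, its close relative, was read by 3 probe sets with log2 differences of 0.15, 0.02 and 0.08. The last of these gave 459.7 to 725.5 with Y-spermatozoa and 454.2 to 696.2 with X-spermatozoa. Its lowest reading in both groups came from sow 3. The type II receptors ACVR2A and ACVR2B had 3 probe sets near background, between 0.9 and 20.0 with Y-spermatozoa and between 2.2 and 24.2 with X-spermatozoa, and none passed the test.

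**Figure D2:**
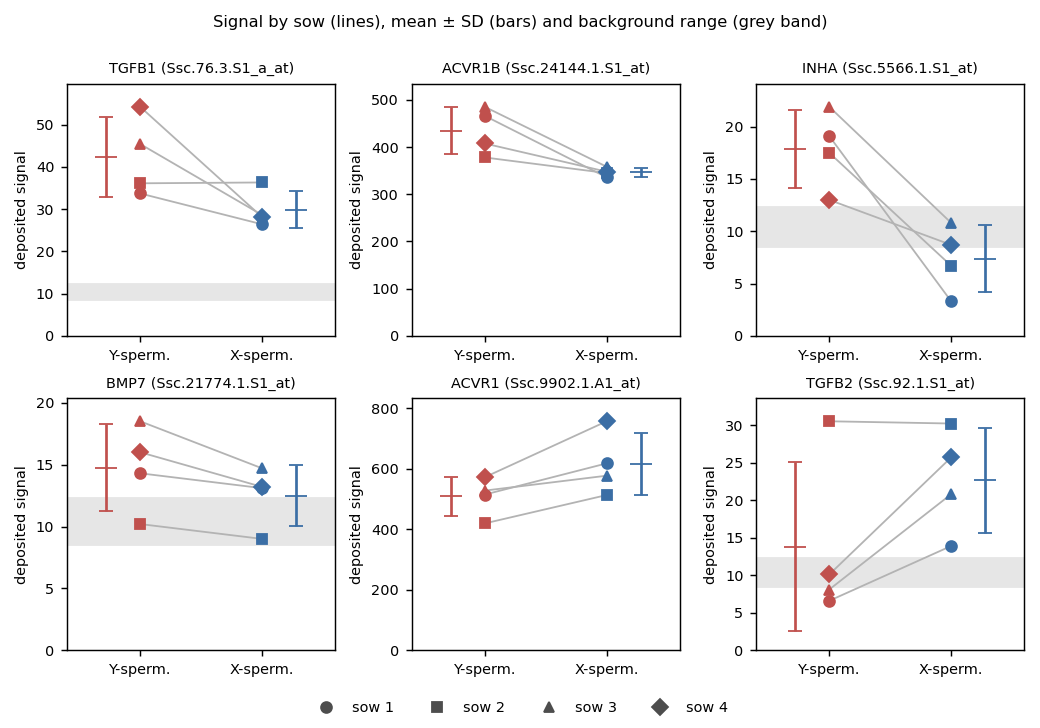
Deposited signal (arbitrary units, axes start at 0) in the Y-spermatozoa (red, left) and X-spermatozoa (blue, right) oviduct of each sow, joined by a line, for the 6 probe sets with an unadjusted p under 0.05 without or with the sow as a block. Bars give mean ± SD (n = 4) and the grey band the range of background levels over the arrays, drawn where the signals are low; the ACVR1 lines all run upwards to X-spermatozoa and the BMP7 lines all downwards.

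Among the TGF-beta ligands TGFB1 was the only gene called, and with a single probe set. TGFB1 is a cytokine that restrains immune responses and drives matrix synthesis. The brighter probe set gave 33.7, 36.1, 45.4 and 54.2 with Y-spermatozoa, against 26.4, 36.3, 28.6 and 28.1 with X-spermatozoa. The groups overlapped through sow 2, whose oviducts were nearly equal, and sows 3 and 4 had the widest gaps, at 0.72 and 0.97 on the log2 scale. The log2 difference was 0.53 (standard error 0.18), with an unadjusted p of 0.0224 and an adjusted p of 1 in limma. The dimmer probe set gave 21.3, 17.6, 8.9 and 22.3 with Y-spermatozoa, against 11.3, 13.3, 17.8 and 13.8 with X-spermatozoa. The dimmer one was higher in 3 of 4 sows and lower in sow 3, with a log2 difference of 0.32 (95% confidence interval -0.40 to 1.05). Without array Y3 its log2 difference was 0.62, with an unadjusted p of 0.0108. The study lists TGFB1 and BMP4 under this pathway from these same arrays, so their directions are no independent evidence.

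No probe set of TGFB2 or TGFB3, sister ligands of TGFB1, passed the test. TGFB2 had 4 probe sets with log2 differences of -0.22, -0.88, 0.47 and 0.07. Those at 0.47 and 0.07 were above background on 0 and 1 arrays, so their signs carry little weight. The others of TGFB2 and those of TGFB3 were negative, with intervals that include 0. The probe set at -0.88 gave 6.6, 30.5, 8.1 and 10.1 with Y-spermatozoa, against 13.9, 30.2, 20.8 and 25.7 with X-spermatozoa. In sow 2 both oviducts were high and alike, while the Y-spermatozoa oviducts of sows 1, 3 and 4 were below background. Its log2 difference of -0.88 (standard error 0.50) had an unadjusted p of 0.119 in limma and of 0.0292 with the sow as a block. The call with the block was lost without sow 1, 3 or 4 (unadjusted p of 0.0973 to 0.103 in limma). Without array Y2 every remaining Y-spermatozoa array was below background, so no difference is given. The bright probe set of TGFB2, at -0.22, gave 18.4, 29.4, 24.0 and 26.9 with Y-spermatozoa, against 19.8, 34.5, 47.1 and 23.0 with X-spermatozoa. The bright TGFB3 probe set gave 11.8, 26.0, 15.7 and 33.1 with Y-spermatozoa, against 19.7, 28.3, 26.8 and 18.9 with X-spermatozoa, and its log2 difference was -0.15 (standard error 0.34). A dimmer TGFB3 probe set had a log2 difference of -0.30.

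TGFBR1, the type I receptor of TGF-beta, did not pass the test. Its bright probe set gave 281.9, 254.7, 305.5 and 271.2 with Y-spermatozoa, against 302.3, 280.8, 303.8 and 268.5 with X-spermatozoa. The log2 difference was -0.05 (95% confidence interval -0.30 to 0.19). Of its 2 dimmer probe sets, the brighter had a log2 difference of 0.11 and the other was below background on all arrays. TGFBR3, the co-receptor betaglycan, was above background on 2 of 4 arrays of each group, and its log2 difference was -0.22 (95% confidence interval -2.24 to 1.80).

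LTBP1 is a matrix protein that holds latent TGF-beta, and BMP, SMAD and LTBP genes are among those the study lists under this pathway. The probe set that the study names LTBP1 by its match to a human transcript carries no symbol in the platform annotation, and so it is not one of the 45. It gave 21.8, 23.1, 16.4 and 18.2 with Y-spermatozoa, against 28.6, 33.8, 24.8 and 32.0 with X-spermatozoa. All Y-spermatozoa signals lay below all X-spermatozoa signals, and the log2 difference was -0.54 (standard error 0.17), with an unadjusted p of 0.0148 in limma and of 0.00630 with the sow as a block. The study chose this probe set on these arrays, so its direction is no independent evidence. Of the others the study names in this way, a second SMAD4 probe set had a log2 difference of -0.26 with an unadjusted p of 0.482. SMAD5 was above background on 1 array, with a log2 difference of 0.50 and an unadjusted p of 0.227, or 0.0169 with the sow as a block. FSTL5, a follistatin-like gene, gave 1.0, 4.1, 1.5 and 3.7 with Y-spermatozoa, against 6.0, 9.9, 6.3 and 8.0 with X-spermatozoa. It was lower with Y-spermatozoa in all 4 sows without overlap, but it was below background on all 8 arrays, so no fold is given. Its unadjusted p was 0.0105 in limma and 0.00399 with the sow as a block. TGFBRAP1, a protein that binds TGF-beta receptors, was also below background on all arrays (unadjusted p of 0.604 in limma).

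The probe sets grouped as BMP and GDF ligands gave 5 positive and 3 negative differences. Among the positive are both probe sets of BMP1, which is not a ligand. BMP4, a ligand of the BMP branch that the study lists, gave 66.9, 44.9, 54.7 and 65.0 with Y-spermatozoa, against 51.3, 45.2, 48.5 and 47.9 with X-spermatozoa. Sows 1, 3 and 4 were higher with Y-spermatozoa, and sow 2 was nearly equal, its normalized values differing by 0.03 on the log2 scale. The log2 difference was 0.27 (standard error 0.15) with an unadjusted p of 0.0998 in limma, and with an array left out it ran from 0.20 (without Y1, unadjusted p of 0.221) to 0.38 (without Y2, unadjusted p of 0.0188). With the hybridisation controls as a covariate it was 0.06, with an unadjusted p of 0.854 in limma, a fit that can hardly tell these controls from sperm type. BMP7, another BMP ligand, was read close to background, at 14.3, 10.2, 18.5 and 16 with Y-spermatozoa, against 13.1, 9.0, 14.7 and 13.2 with X-spermatozoa. It was slightly higher with Y-spermatozoa in every sow, by 0.20 to 0.39 on the log2 scale. The unadjusted p was 0.189 without the sow as a block and 0.0210 with it. The call with the block was lost without sow 2, 3 or 4 (unadjusted p of 0.0647 to 0.0723 in limma) and with the sow as a random block (0.0949).

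BMP1 is named for the family but is a metalloproteinase that trims procollagen. Its bright probe set gave 38.5, 63.8, 45.4 and 48.9 with Y-spermatozoa, against 27.9, 57.6, 45.2 and 45.2 with X-spermatozoa. Its normalized values exceeded the X-spermatozoa side in each of the 4 sows, with a log2 difference of 0.21 (standard error 0.25), or 0.011 without array X1. A dimmer BMP1 probe set had a log2 difference of 0.27. GDF9, best known as an oocyte growth factor, was above background on every array although sows were sampled before ovulation, at 108.6, 88.9, 100.4 and 72.7 with Y-spermatozoa, against 108.0, 92.6, 97.7 and 80.4 with X-spermatozoa. Its log2 difference was -0.03 (95% confidence interval -0.40 to 0.34). BMP15, the other oocyte factor of the family, was above background on 0 of 4 Y-spermatozoa arrays and 1 of 4 X-spermatozoa arrays. The 2 probe sets of GDF11 were above background on 1 Y-spermatozoa array each and on no X-spermatozoa array.

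None of the 3 SMADs among the members passed the test. SMAD1, the transducer of the BMP branch, gave 296.6, 298.8, 313.0 and 354.2 with Y-spermatozoa, against 302.1, 319.2, 273.7 and 279.1 with X-spermatozoa, with a log2 difference of 0.10 (95% confidence interval -0.16 to 0.35). SMAD4, the partner that all branches share, gave 334.6, 448.5, 420.7 and 414.3 with Y-spermatozoa, against 367.6, 445.3, 456.9 and 412.0 with X-spermatozoa. Its normalized values were lower with Y-spermatozoa in all 4 sows, but with log2 differences of only -0.14 to 0.00 within sows, and the mean was -0.07 (95% confidence interval -0.38 to 0.24). SMAD3, the transducer of TGF-beta and activin, was dim, at 15.8 to 27.1 with Y-spermatozoa and 6.3 to 23.3 with X-spermatozoa. Its log2 difference of 0.47 (95% confidence interval -0.50 to 1.45) had an unadjusted p of 0.294.

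The ID genes encode inhibitors of helix-loop-helix transcription factors and are direct targets of BMP signalling in many cells. All 4 had positive differences, and none passed the test. Over 23 alternative fits ID4 turned negative in 5, among them that with the hybridisation controls as a covariate. ID3 did so in 3 and ID1 in 0. ID1 gave 127.8, 195.0, 92.5 and 160.0 with Y-spermatozoa, against 143.1, 133.9, 95.2 and 116.9 with X-spermatozoa, with a log2 difference of 0.21 (standard error 0.25). ID3 gave 92.3, 163.0, 88.3 and 156.3 with Y-spermatozoa, against 108.1, 132.7, 111.5 and 100.8 with X-spermatozoa, with a log2 difference of 0.10 (standard error 0.24). Both were higher with Y-spermatozoa in sows 2 and 4 and lower in sows 1 and 3. ID4 had a log2 difference of 0.02 (95% confidence interval -0.33 to 0.37). ID2 was above background on 2 of 4 Y-spermatozoa arrays and no X-spermatozoa array, with signals of 1.9, 10.7, 3.6 and 21.1 against 0.8, 2.9, 9.9 and 4.2.

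The follistatins, which trap activin outside the cell, gave mixed values. FSTL3 had a log2 difference of 0.12 (95% confidence interval -0.32 to 0.57) with signals of 56.8 to 82.9 with Y-spermatozoa and 50.7 to 79.7 with X-spermatozoa. FST had a log2 difference of -0.17 (95% confidence interval -0.58 to 0.24) with signals of 18.0 to 26.8 with Y-spermatozoa and 20.8 to 30.4 with X-spermatozoa. The second probe set of FST had a log2 difference of 0.01, with signals of 5.2 to 12.4 with Y-spermatozoa and 6.6 to 10.0 with X-spermatozoa, and that of FSTL3 was below background on all arrays.

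Some members had the same high arrays as the smooth muscle and fibroblast markers of the scrapings. The sum of the smooth muscle markers was highest on Y2, Y4, X2 and X3, at 5570, 6695, 7591 and 6645, and lowest on Y1, Y3, X1 and X4, at 1534, 2012, 2436 and 4219. The summed fibroblast markers (COL1A2, COL3A1, DCN, LUM and VIM) were highest on the same 4 arrays, although X3, at 4564, lay just above X1, at 4467, and of the single genes this held for the bright probe set of DCN alone. ID3 and the bright probe sets of TGFB3 and TGFB2 also had their 4 highest signals on exactly these arrays. That is 3 of the 22 bright members (13.6%), beside 3.76% of all probe sets above background on every array. The pattern was noticed after the values were seen, and the part of these cells in it was not tested. Of these 4 arrays 2 belong to each sperm type. Within sows the smooth muscle sum was lower with Y-spermatozoa in sows 1, 2 and 3 and higher in sow 4, as were the bright TGFB2 probe set (log2 differences of -0.05, -0.18, -0.94 and 0.27) and the bright TGFB3 probe set (-0.69, -0.05, -0.72 and 0.85). ID3 departed from this in sow 2, where it was higher with Y-spermatozoa (-0.23, 0.30, -0.32 and 0.64).

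**Figure D3:**
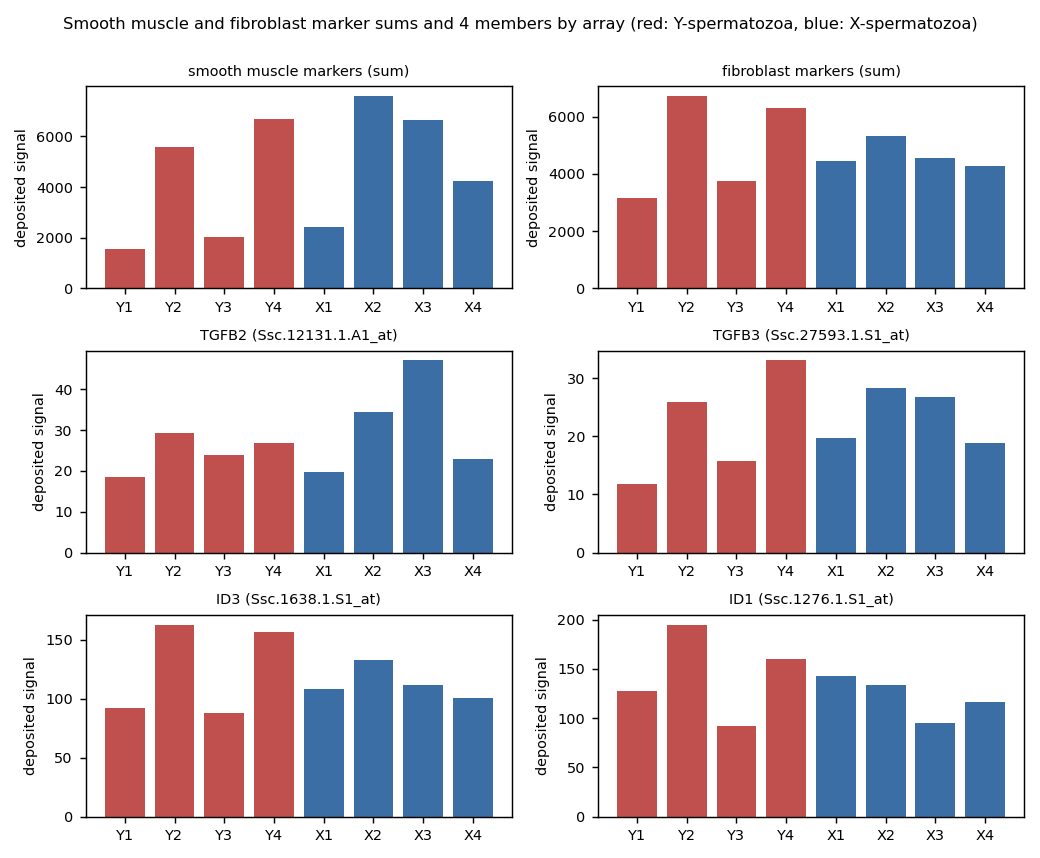
Deposited signal (arbitrary units, axes start at 0) on each array, Y-spermatozoa in red and X-spermatozoa in blue, for the summed smooth muscle and fibroblast markers and for TGFB2, TGFB3, ID3 and ID1. The marker sums, TGFB2, TGFB3 and ID3 are highest on Y2, Y4, X2 and X3, whereas ID1 is low on X3, at 95.2.

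Without adjustment 5 of 45 members differed between sows in limma (11.1%, against 14.2% of all probe sets), and 0 did after adjustment. They were BMP7, BMP1 (bright probe set), INHBB (the probe set at -0.83) and 2 probe sets of TGFB2, with unadjusted p-values of 0.0129 to 0.0409. BMP7 was lowest in sow 2 on both sides, at 10.2 with Y-spermatozoa and 9.0 with X-spermatozoa. BMP1 was highest in sow 2 and lowest in sow 1, and GDF9 was highest in sow 1 and lowest in sow 4 on both sides (unadjusted p = 0.0580 between sows). What sets the sows apart, the animal or the handling of its samples, cannot be told apart. Among the 22 bright members 6 kept a single direction in all 4 sows (27.3%, against 14.5% of all bright probe sets), namely TGFB1, ACVR1B, BMP4 and BMP1 upwards with Y-spermatozoa and ACVR1 and SMAD4 downwards.

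Other genes of the pathway were taken from a list of 66, of which 28 were measured, by 52 probe sets. With Y-spermatozoa 1 was higher and 0 lower at the unadjusted threshold (1.92%, against 3.56% of all probe sets), and their median log2 difference was -0.01. The 1 was a probe set of COMP, a matrix protein, which was below background on all arrays. With the sow as a block 2 passed, of which the second, of DCN, was also below background. THBS1, which frees TGF-beta from its latent form, gave 90.7, 295.7, 186.6 and 339.6 with Y-spermatozoa, against 219.1, 351.7, 414.5 and 277.5 with X-spermatozoa in the brightest of its probe sets. Its log2 difference was -0.61 (standard error 0.43), with wide overlap. BAMBI, a decoy receptor of the family, was lower with Y-spermatozoa in all 4 sows in the brighter of its 2 probe sets, with a mean log2 difference of -0.14, and TGIF1, a repressor that binds SMADs, had log2 differences of 0.00 and 0.05. None of these 3 genes passed the test.

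The 3 called members were not equally stable. ACVR1B no longer passed when array Y1, Y3, X1, X2 or X4 was left out, with log2 differences of 0.25 to 0.31 and unadjusted p-values of 0.0558 to 0.0722. TGFB1 no longer passed when Y3, Y4, X1, X3 or X4 was left out, with log2 differences of 0.40 to 0.51 and unadjusted p-values of 0.0515 to 0.0575. INHA passed without any single array. With the hybridisation controls as a covariate none of the 3 passed, and the log2 differences were 0.98 for INHA, 0.12 for ACVR1B and 0.24 for TGFB1, with unadjusted p-values of 0.247, 0.650 and 0.559. The controls did not overlap between sperm types, so this fit can hardly tell them from sperm type. The standard error rose from 0.36 to 0.77 for INHA and from 0.12 to 0.24 for ACVR1B.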

How the data were processed

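RNA of scraped oviduct cells from 4 sows was measured on 8 Affymetrix Porcine arrays, 4 per sperm type by the labels. The deposited values are linear intensities, 1 signal per probe set, which the authors made with MAS5 (version 5.1). The study's methods describe RMA and limma; probe-level values were not used here. Signals were quantile normalized over 24123 probe sets, floored at 1 and put on the log2 scale. The 23999 probe sets other than AFFX controls were fitted with limma (version 3.58.1 in R 4.3.3; lmFit, eBayes, two-sided, no block), with Benjamini-Hochberg adjustment over all of them. Signals and group overlap are of deposited values, differences of normalized ones. Exact permutation tests ran over 70 relabellings, without the pairing by sow. Precision is limited by the number of arrays.

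The methods give 2 oviducts per sow, and the labels give a replicate number in each group, which was taken as the sow. Arrays with the same number deviated together from their group means (r = 0.132 to 0.187 in the 4 pairs, across probe sets). Arrays with different numbers were not compared in this way, so the pairing by number remains an assumption. Alternatives were the sow as a block or random block, deposited scaling, median centring, a pseudocount of 16, a floor at background, only probe sets whose mean signal exceeded the median over the array (a cut other than that of the bright ones), a variance trend, array weights, a plain test without moderation, a covariate for the hybridisation controls, and leaving out arrays or sows.

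Background was planned from all probe sets without a pig target, but the poly-A controls carried clear signal, so 64 reporter and 17 tag probe sets were used. A probe set with BMP7 and another symbol was left out. In simulated data for this comparison, with 200 of 23999 probe sets changed, 77.0% of those changed by a log2 of 1 were called without adjustment and 27.5% with it, and for a log2 of 2 these were 91.0% and 65.5%. The simulated noise was normal and independent between arrays, without a sow effect or a floor. Of its unchanged probe sets 5.27% were called without adjustment (log2 of 1), beside 3.56% of all in the data. Smaller changes, such as those of the bright members (-0.29 to 0.53), were not simulated. The members and gene lists were chosen with earlier results of these data known. Genes named are those passing either fit, those the study lists, all TGF-beta ligands and receptors, SMADs and ID genes, the 2 brightest genes of each other role and the 8 probe sets that differ most between sows. ACVR2A, ACVR2B, BMPR1A, BMP15, GDF11 and genes from the list of other pathway genes fall outside this rule.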

Additional observations from a re-analysis of the deposited data

Results flagged for a closer look

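In 58 groups of 4 arrays (29 probe sets, each sperm type), 2 arrays stood apart from the other 3 of their group by the gap to the nearest of them over the group's range. Chance alone gives about 1 in 20 such groups. The dimmer ACVR1 probe set had a signal of 350.2 on array X4, with the nearest X-spermatozoa array at 290.2 (a gap of 0.88 of the range). The TGFB2 probe set with a log2 difference of -0.88 had a signal of 30.5 on array Y2, with the nearest Y-spermatozoa array at 10.1 (a gap of 0.854 of the range), and the X-spermatozoa oviduct of the same sow gave 30.2.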

How the results depend on the processing

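With the sow as a block the 3 members past an unadjusted p of 0.05 became 6 (2 of them lower with Y-spermatozoa). A random block gave 5 (1 lower), without BMP7 and the TGFB2 probe set at -0.88. It added another TGFB2 probe set, higher with Y-spermatozoa, and the positive probe sets of TGFB2 were above background on 0 and 1 arrays. Among the probe sets whose mean signal exceeded the median over the array alone 1 passed (higher), since INHA and TGFB1 are not among these. With the hybridisation controls as a covariate 1 was higher and 1 lower (GDF11 and ACVR2A), and with the deposited scaling or median centring 1 was lower. The cause was not tested. Leaving out an array or a sow gave 1 to 6 members, 1 to 4 higher and 0 to 3 lower: 1 without X1 or sow 4, 5 without Y2 or sow 2, 6 without sow 3. The fits without a sow, here and for the list of other pathway genes, kept the sow as a block. Their counts of members stand beside 6, and those without an array beside 3. After adjustment 0 passed in any of these. The list of other pathway genes gave 2 calls with either block or array weights, 3 with the covariate, 0 with the deposited scaling, these above-median probe sets or a variance trend, and 0 to 5 when arrays or sows were left out, beside 1. Between sows 1 member (BMP1) passed the adjusted threshold among the above-median probe sets, beside 0.

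Members whose differences lie near 0 changed sign. The hybridisation controls did not overlap between sperm types, so the fit with this covariate can hardly tell them from sperm type. The covariate gave -0.42 and -0.29 for BMPR1B (the middle and the brightest probe set), -0.022 for BMP1, 0.21 for FST, -0.056 for FSTL3, -0.034 for ID4, -0.0077 for SMAD1, 0.0090 for SMAD4, 0.19 for TGFB3 and -0.89 for TGFBR1 (the brighter of its 2 dimmer probe sets). Median centring gave 0.0097 for ACVR1 (the dimmer probe set) and 0.020 for BMPR1A, and array weights -0.0006 for the middle BMPR1B probe set. With arrays or sows left out the log2 differences ran from -0.089 to 0.065 for this ACVR1 probe set, -0.080 to 0.10 for BMPR1A, -0.018 to 0.28, -0.12 to 0.11 and -0.039 to 0.22 for BMPR1B (dimmest, middle and brightest), -0.30 to 0.015 for FST, -0.022 to 0.22 for FSTL3, -0.11 to 0.078 for GDF9, -0.080 to 0.25 for ID3, -0.052 to 0.13 for ID4, -0.037 to 0.13 for INHBA, -0.14 to 0.015 for SMAD4, -0.41 to 0.013 for the bright TGFB2 probe set, -0.49 to 0.096 for TGFB3 and -0.13 to 0.43 for the same TGFBR1 probe set. The sow as a block changed the call of no followed member beside ACVR1, BMP7 and TGFB2. Dim signals and 4 arrays per group limit what differences could be shown.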
